A study of Mus musculus with 127 samples.

Results

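The libraries described here are those of short-term haematopoietic stem cells (ST) from young mice after 4 h with 2 bacterial ligands, beside the unexposed ST of those 3 animals. They were chosen from the sample titles, as the ST libraries of young mice 1, 2 and 3 at 4 h with LPS and Pam3csk4 and the ST libraries of the same mice at 0 h. Repeats of a mouse and time were summed, which gave 6 of the 108 summed libraries of the series, made from 8 of its 127 deposited ones. The tested cells were cultured in a medium for haematopoietic stem and progenitor cells with 100 ng/ml lipopolysaccharide (LPS, from the outer membrane of Gram-negative bacteria) and 1 ug/ml Pam3csk4 (a synthetic bacterial-type lipopeptide). The 0 h cells had no exposure, whether their label names the ligands (mice 1 and 2) or no treatment (mouse 3). Cells were sorted by surface markers from bone marrow, and their polyadenylated RNA was read in bulk by SMART-seq2, which makes whole cDNA from little material. The labels call the mice young and give no strain, genotype, age in weeks or sort gate. ST of young mouse 4, kept in culture with no ligand and taken at 0 and 4 h, are used beside them, and long-term stem cells (LT) and multipotent progenitors (MPP) of mice 1, 2 and 3 for comparison.

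LPS is bound by the Toll-like receptor Tlr4 with its co-receptors, and Pam3csk4 by Tlr2 with a partner receptor. Both receptors signal through a shared adaptor to the I-kappa-B kinases, which release NF-kB transcription factors from inhibitors such as the product of Nfkbia. NF-kB then induces chemokines, cytokines and survival genes, and also the genes of its own inhibitors, which close the loop. ST are multipotent cells with limited self-renewal, and stem and progenitor cells are known to carry Toll-like receptors and to respond to bacterial products.

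The 4 h libraries of mice 1, 2 and 3 held 5658912, 6091596 and 3029323 counts, and the 0 h libraries 8286277, 10706984 and 4104872. Detected genes numbered 7788, 10556 and 12736 at 4 h, against 10599, 12510 and 12564 at 0 h. The 0 h libraries of mice 1 and 2 are sums of 2 repeats, and no 4 h library is a sum, so these numbers are not like for like. Taken singly, the 0 h repeats detected 8210 and 9395 genes in mouse 1 and 11068 and 11708 in mouse 2. The 2 repeats behind the 0 h sum correlated at r = 0.717 in mouse 1 and 0.884 in mouse 2 (log2(CPM + 1) across 17552 genes, which are not independent replicates). CPM are counts per 1000000 of the summed library, and values of 3 libraries are given in the order of mice 1, 2 and 3. Of the stem and progenitor cell markers chosen for a check of the sorted cells, Kit had 219, 571 and 1413 CPM at 4 h, against 404, 666 and 1448 CPM at 0 h. Cd34 had 186, 358 and 403 CPM at 4 h, against 304, 583 and 969 CPM at 0 h. Ly6a, Gata2, Runx1 and Meis1 were also detected, except Gata2 at 0 in mouse 1 at 4 h, and Cd48 was at 0 in mouse 3 at 4 h (11, 49.4 and 0 CPM, against 77.7, 60.3 and 3.41 CPM at 0 h). In bulk RNA, fewer cells of a type and less RNA per cell cannot be told apart.

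Transcripts of other cell types were present, and those of granulocytes and monocytes set mouse 3 apart. A set of 6 neutrophil granule genes (S100a8, S100a9, Camp, Ngp, Lcn2 and Ltf) took 6.53%, 3.80% and 0.0504% of counts at 4 h in mice 1, 2 and 3, against 5.50%, 3.48% and 0.0158% at 0 h. The 17 tested monocyte, macrophage and dendritic cell markers summed to 9937, 6496 and 865 CPM at 4 h, against 14862, 7690.3 and 538 CPM at 0 h. Summed erythroid markers lay between 903 and 1405 CPM at 4 h, against 1054 and 2705 CPM at 0 h. B cell markers summed to 48.2 to 195 CPM at 4 h, against 60.9 to 448 CPM at 0 h, T and NK cell markers to 23.1 to 93.1 CPM, against 38 to 214 CPM, megakaryocyte markers to 65.0 to 166 CPM, against 109 to 173 CPM, and stromal and endothelial markers to 112 to 355 CPM, against 14.2 to 125 CPM. At 4 h mouse 3 lay between mice 1 and 2 in the erythroid and megakaryocyte sums and was highest in the stromal and endothelial sum. Pax5, Cd3e, Cd3g, Ncr1, Cxcl12 and Fcgr1 were at 0 in all 3 libraries at 4 h. Primary granule genes summed to 8512, 5856 and 1031 CPM at 4 h, against 12217, 8544 and 1115 CPM at 0 h. In each of these marker lists 0 members passed the edgeR test described next, and between 0 and 4 had an unadjusted p under 0.05 (DESeq2 called 0 to 2 members a list). Mouse and header date go together in the count table (14 April, 15 April and 1 July columns for mice 1, 2 and 3), so the difference between mouse 3 and the others cannot be told apart from that of the dates.

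Of 13678 genes tested, 35 rose and 2 fell at 4 h against 0 h (edgeR quasi-likelihood F test, Benjamini-Hochberg adjusted p under 0.05, 0.271% of genes called, 0.256% higher and 0.0146% lower). At an unadjusted p under 0.05 there were 1009 (7.38%). This fit compares group means over 63 libraries of LT, ST and MPP, without pairing by mouse, and a fit of the 6 compared libraries alone called 2 genes, Cxcl16 and Nfkbiz. Paired, with the mouse as replicate block, 82 genes rose (0.600%) and 13 fell (0.0950%). The genes that rose include many known targets of NF-kB, among them its inhibitors Nfkbia, Tnfaip3 and Tnip1, the atypical I-kappa-B gene Nfkbiz, and its subunits Nfkb2 and Relb. They also include 6 chemokines, and activation and survival genes such as Icam1, Cd69, Gadd45b and Bcl2a1b. Stress genes (Sqstm1, Ftl1, Vmp1, Hspa5) and 3 enzymes of sterol synthesis rose as well. In all 35, every 4 h library lay above every 0 h library, which held for 3.99% of all genes. In both genes that fell every 4 h library lay below, which held for 11.1% of all genes. DESeq2 called 452 genes (3.30%), 221 higher (1.62%) and 231 lower (1.69%), and limma voom 126 (0.921%) and 94 (0.687%), so the share of calls that were higher was 48.9% and 57.3% there, beside 94.6%. The median log2 change of all genes was -0.24, and -0.30 by DESeq2 and with the mouse as replicate block. Without mouse 2, 5 genes kept their call (Nfkbia, Nfkbiz, Tnfaip3, Nfkb2 and Gadd45b). Without mouse 1, 26 genes were called, with 16 of the 37 among them. Without mouse 3, 71 were called, with 30 of the 37 among them.

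**Figure D1:**
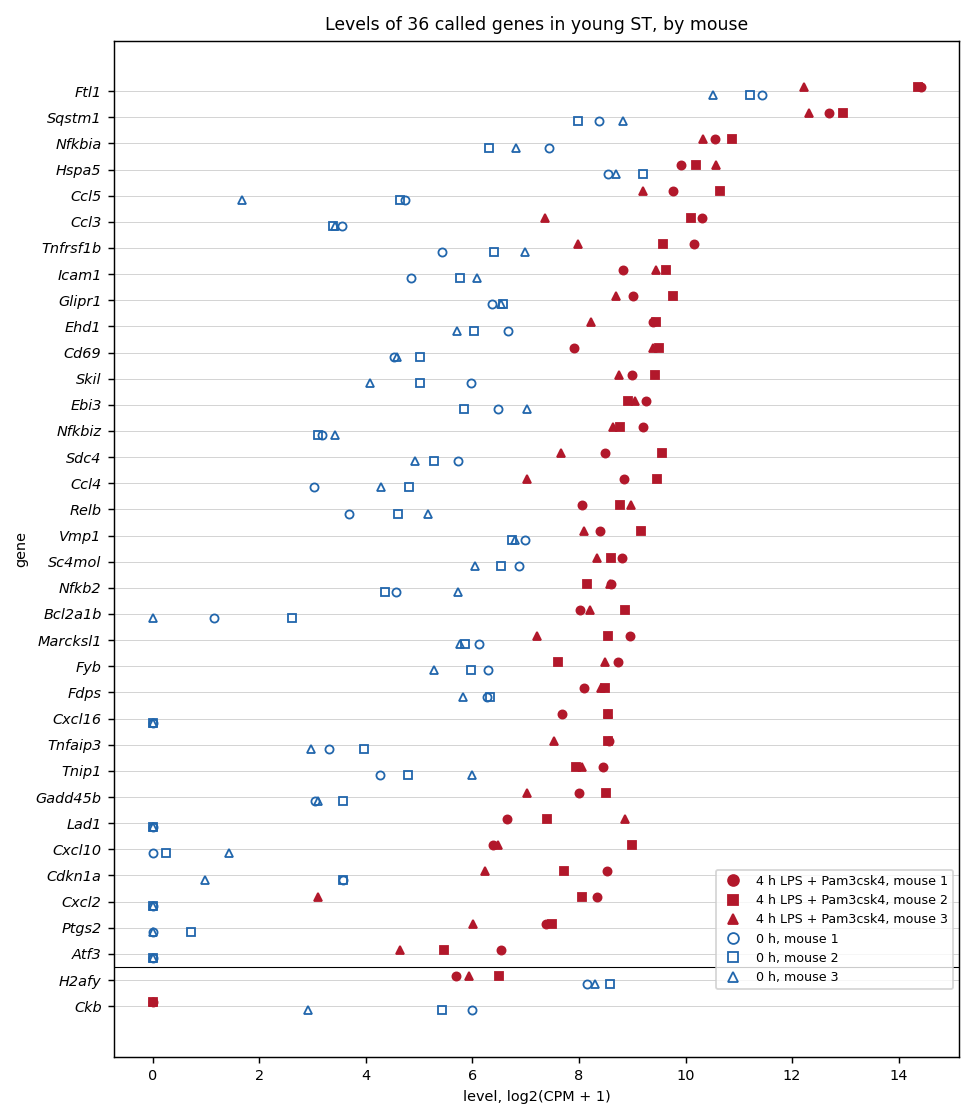
Levels of 36 of the called genes as log2(CPM + 1) in each library of young ST (filled, 4 h with LPS and Pam3csk4; open, 0 h; the marker shape gives the mouse), ordered by mean level at 4 h, with the 2 genes that fell below the line. The 34 genes above the line have no overlap between times, and Cxcl16, Lad1, Cxcl2 and Atf3 were at 0 in every 0 h library.

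Of the genes listed as NF-kB feedback inhibitors, Nfkbiz and Nfkbia had the lowest adjusted p-values of the comparison. Nfkbia, whose product keeps NF-kB out of the nucleus, had 1505, 1864 and 1289 CPM at 4 h, against 172, 78.7 and 112 CPM at 0 h (log2 change 3.81 ± 0.41 SE, edgeR adjusted p = 1.9e-08). Nfkbiz, which encodes an atypical I-kappa-B acting in the nucleus on selected targets, had 591, 434 and 397 CPM at 4 h, against 8.09, 7.57 and 9.74 CPM at 0 h (log2 change 5.93 ± 0.61 SE, edgeR adjusted p = 8.4e-09). The 3 mice lay close together at both times in Nfkbiz and at 4 h in Nfkbia, whose 0 h level ran from 78.7 to 172 CPM. Mouse 3 was lowest at 4 h in both genes. Tnfaip3, the ubiquitin-editing enzyme A20, had 376, 375 and 184 CPM at 4 h, against 8.93, 14.7 and 6.82 CPM at 0 h (log2 change 5.05 ± 0.68 SE, edgeR adjusted p = 3.5e-06), lowest in mouse 3 at both times. Tnip1, a partner of A20, had 349, 244 and 265 CPM at 4 h, against 18.3, 26.5 and 62.9 CPM at 0 h (log2 change 3.13 ± 0.56 SE, edgeR adjusted p = 0.001). Of the 17 tested genes listed as feedback inhibitors, these 4 rose and 0 fell, and 14 had a positive change. The list's median log2 change was 2.23 beside -0.24 over all genes.

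Of the NF-kB subunits, both that rose belong to the non-canonical arm. Nfkb2, the precursor of p52, had 389, 282 and 385 CPM at 4 h, against 22.7, 19.6 and 52.1 CPM at 0 h (log2 change 3.61 ± 0.48 SE, edgeR adjusted p = 3.5e-06). Relb, its usual partner, had 264, 436 and 503 CPM at 4 h, against 11.8, 23.3 and 34.8 CPM at 0 h (log2 change 4.23 ± 0.73 SE, edgeR adjusted p = 6.3e-04). In Nfkb2 mouse 2 was lowest at both times, and in Relb mouse 3 was highest at both. Ikbke, an I-kappa-B kinase relative that NF-kB itself induces, had 642, 457 and 823 CPM at 4 h, against 50.7, 62.2 and 62.1 CPM at 0 h, a change that did not pass (log2 change 3.57 ± 0.93 SE, edgeR adjusted p = 0.1) although the groups did not overlap. It passed with the mouse as replicate block, with an edgeR adjusted p of 0.047. Nfkb1, the precursor of p50, had 101, 210.3 and 188 CPM at 4 h, against 58.8, 78 and 98.9 CPM at 0 h (log2 change 1.21 ± 0.66 SE, edgeR adjusted p = 0.72). Of the 12 members tested, 2 rose and 0 fell, all 12 had a positive change, and their median was 1.42.

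The DNA upstream of 5 of these and the chemokine genes below is printed because NF-kB binds a short motif, and the genes that rose include many of its known targets. Promoter windows of 300 bases, from 250 before to 50 after a transcript start, were taken from RefSeq on GRCm38.p6, a build other than the mm9 of the counts, and matched by symbol. The kappa-B consensus of 10 letters was searched on both strands, overlapping matches included. It was present in 8.46% of the 32851 windows in the table. Of the 35 genes that rose, 23 had a window and 11 of those held the motif in at least 1 (Cxcl10, Cxcl2, Ebi3, Ftl1, Nfkb2, Nfkbia, Sdc4, Sqstm1, Tnfaip3, Tnip1 and Vmp1), that is 47.8%, beside 12.3% of the 10095 tested genes with a window. A match describes letters and is not evidence of binding, and genes with several starts have several windows. The 200 bases before 1 start of each of 5 genes follow, with the motif matches in capitals.
Nfkbia: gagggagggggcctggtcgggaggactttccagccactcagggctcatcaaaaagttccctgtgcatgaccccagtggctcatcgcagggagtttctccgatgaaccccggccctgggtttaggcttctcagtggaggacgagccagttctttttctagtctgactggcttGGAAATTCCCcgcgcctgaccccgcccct
Nfkb2: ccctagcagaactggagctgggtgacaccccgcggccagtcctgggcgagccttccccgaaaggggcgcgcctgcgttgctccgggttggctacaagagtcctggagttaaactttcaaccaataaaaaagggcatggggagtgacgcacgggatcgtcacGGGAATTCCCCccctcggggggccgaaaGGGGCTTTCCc
Tnfaip3: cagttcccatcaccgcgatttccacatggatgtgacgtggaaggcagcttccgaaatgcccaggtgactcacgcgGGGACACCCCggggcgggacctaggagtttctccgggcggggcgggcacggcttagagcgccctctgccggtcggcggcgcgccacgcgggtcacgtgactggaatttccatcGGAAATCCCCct
Cxcl2: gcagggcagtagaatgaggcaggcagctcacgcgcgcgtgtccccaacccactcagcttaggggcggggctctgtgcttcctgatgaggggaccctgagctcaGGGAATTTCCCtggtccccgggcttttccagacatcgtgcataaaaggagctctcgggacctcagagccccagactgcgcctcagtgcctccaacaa
Cxcl10: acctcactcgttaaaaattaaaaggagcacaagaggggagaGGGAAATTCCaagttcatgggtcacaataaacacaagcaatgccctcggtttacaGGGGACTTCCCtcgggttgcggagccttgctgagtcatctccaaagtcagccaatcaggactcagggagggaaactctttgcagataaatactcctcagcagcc
These lie at chr12:55492648-55492847, minus strand (Nfkbia), chr19:46304537-46304736, plus strand (Nfkb2), chr10:19015411-19015610, minus strand (Tnfaip3), chr5:90903699-90903898, plus strand (Cxcl2) and chr5:92348890-92349089, minus strand (Cxcl10). The match of Nfkbia starts 29 bases before the transcript start, those of Nfkb2 39, 38 and 11 bases before, and those of Tnfaip3 125 and 12 bases before. In Cxcl2 they start 97 and 96 bases before, and in Cxcl10 159, 104 and 103 bases before.

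Chemokines, which attract leukocytes, had the highest median fitted change of the 30 lists, and 10 of the 20 listed were at 0 in every 0 h library. Within mice 1, 2 and 3 their median change was 0.295, 4.45 and 1.86 on the log2(CPM + 1) scale. In mouse 1 this was below the 1.63 of the NF-kB feedback inhibitors. Cxcl16, a membrane-bound chemokine for Cxcr6-bearing T cells, had 203, 372 and 374 CPM in mice 1, 2 and 3 at 4 h and 0 counts in every 0 h library, at least 2436-fold higher when the 0 h group is put at 3 counts (edgeR adjusted p = 2.1e-04). Cxcl2, a neutrophil chemokine, was also at 0 at 0 h and had 323, 266 and 7.59 CPM at 4 h, at least 1533-fold higher (edgeR adjusted p = 0.0072). Mice 1 and 2 carried that rise, with mouse 3 far below them. Ccl5, an attractant of T cells and monocytes, had 869, 1596 and 584 CPM at 4 h, against 25.7, 23.9 and 2.19 CPM at 0 h (log2 change 5.99 ± 1.2 SE, edgeR adjusted p = 0.0052). Ccl3, a macrophage inflammatory protein, had 1260.3, 1094 and 163 CPM at 4 h, against 10.7, 9.43 and 9.74 CPM at 0 h (log2 change 6.52 ± 1.53 SE, edgeR adjusted p = 0.034), and its neighbour Ccl4 had 456, 703 and 129 CPM at 4 h, against 7.12, 27.1 and 18.5 CPM at 0 h (log2 change 4.73 ± 1.01 SE, edgeR adjusted p = 0.011). Cxcl10, a chemokine known as an interferon target that NF-kB also induces, had 82.3, 507 and 87.8 CPM at 4 h, against 0, 0.187 and 1.71 CPM at 0 h (log2 change 8.78 ± 1.66 SE, edgeR adjusted p = 0.0021), with mouse 2 well above the other two at 4 h. In Ccl3 and Ccl4 mouse 3 was lowest at 4 h while its 0 h level lay between those of the others. Of 18 chemokines tested these 6 rose and 0 fell, and the median log2 change was 6.07, or 5.49 with genes at 0 in one group set to their bound. Ppbp, a platelet chemokine, is listed at 0 in all 4 h libraries, against 0, 7.19 and 1.22 CPM at 0 h.

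Of 25 cytokines and growth factors tested, 1 passed. Ebi3, a subunit of the interleukins 27 and 35, had 608, 486 and 530.2 CPM at 4 h, against 88.3, 56.2 and 128 CPM at 0 h (log2 change 2.7 ± 0.43 SE, edgeR adjusted p = 1.0e-04). The 3 mice lay close together at 4 h. Tnf, the main inflammatory cytokine of this response, had 941, 757 and 14.9 CPM at 4 h, against 6.52, 0.56 and 0 CPM at 0 h, and did not pass (log2 change 8.0 ± 2.12 SE, edgeR adjusted p = 0.11). Il1b had 1618, 1183 and 286 CPM at 4 h, against 28.7, 4.95 and 0 CPM at 0 h, and did not pass either (log2 change 6.63 ± 1.67 SE, edgeR adjusted p = 0.068). In both genes every 4 h library was above every 0 h library, and mouse 3 was the lowest at both times. With the mouse as replicate block both passed, with edgeR adjusted p of 0.0032 for Tnf and 3.8e-06 for Il1b. Il6, another inflammatory cytokine, had 38.3, 78 and 9.57 CPM at 4 h, against 0, 2.33 and 0 CPM at 0 h (log2 change 5.75 ± 2.56 SE, edgeR adjusted p = 0.65). The list had 18 positive and 5 negative changes and a median of 2.70, or 2.92 with genes at 0 set to their bound.

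Among the receptors for the ligands themselves no call was made. Of 19 Toll-like receptor and adaptor genes tested 0 passed by edgeR, 2 had an unadjusted p under 0.05, DESeq2 called 2 higher and 0 lower, and limma voom 0 and 0. Their median was 0.45. Cd14, the co-receptor of Tlr4, had 797, 898 and 25.1 CPM at 4 h, against 13.5, 4.39 and 0 CPM at 0 h (log2 change 6.69 ± 2.0 SE, edgeR adjusted p = 0.24), high in mice 1 and 2 and low in mouse 3, and passed with the mouse as replicate block at 6.5e-06. Tlr4 had 71.9, 0 and 0.99 CPM at 4 h, against 34.2, 6.91 and 21.2 CPM at 0 h. Tlr2 had 0, 153 and 80.2 CPM at 4 h, against 115, 43.5 and 32.6 CPM at 0 h. The groups overlapped in both receptors, and mice 1 and 2 went opposite ways in each. Irak2, a kinase of Toll-like receptor signalling, had 152, 154 and 78.9 CPM at 4 h, against 18.7, 39.3 and 6.33 CPM at 0 h (log2 change 2.69 ± 0.83 SE, edgeR adjusted p = 0.29). Lbp, the LPS-binding protein, had 13.1, 22.5 and 12.5 CPM at 4 h, against 101, 46.9 and 52.9 CPM at 0 h (log2 change -1.92 ± 1.11 SE, edgeR adjusted p = 0.76).

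Of 22 genes listed for surface activation and adhesion, 4 rose (7 with the mouse as replicate block) and 0 fell, with a median of 1.59. Icam1, an adhesion molecule for leukocyte integrins, had 453, 789 and 694 CPM at 4 h, against 27.6, 53.6 and 67.2 CPM at 0 h (log2 change 3.83 ± 0.64 SE, edgeR adjusted p = 3.0e-04). Cd69, an early activation marker that keeps lymphocytes in tissue, had 238, 726 and 674 CPM at 4 h, against 22, 31.6 and 22.9 CPM at 0 h (log2 change 4.54 ± 0.96 SE, edgeR adjusted p = 0.01). Tnfrsf1b, the second receptor for Tnf, had 1135, 761 and 253 CPM at 4 h, against 42.4, 84.2 and 127 CPM at 0 h (log2 change 3.21 ± 0.74 SE, edgeR adjusted p = 0.027). Marcksl1, an actin-binding protein, had 497, 371 and 147 CPM at 4 h, against 68.3, 57.3 and 53.6 CPM at 0 h (log2 change 2.63 ± 0.56 SE, edgeR adjusted p = 0.011). Mouse 1 was lowest at 4 h in Icam1 and Cd69, and mouse 3 in Tnfrsf1b and Marcksl1. Traf1, a signalling adaptor of Tnf receptors, and Cd83, a marker of mature dendritic cells, reached a mean ± SD of 543 ± 165 and 1049 ± 859 CPM at 4 h, against 8.15 ± 7.82 and 20 ± 26.3 CPM at 0 h (n = 3 mice). With the mouse as replicate block both passed (edgeR adjusted p = 0.0052 and 0.049), and in the fit of 63 libraries without it neither did (0.068 and 0.062). Both were named after their values were seen. Here mouse 3 was the highest of the 3 at 4 h, unlike in Tnf and Cd14.

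Genes of arrest and survival rose as well. Cdkn1a, which encodes the cell cycle inhibitor p21, had 369.9, 211 and 74.3 CPM at 4 h, against 10.9, 10.8 and 0.974 CPM at 0 h (log2 change 4.95 ± 0.94 SE, edgeR adjusted p = 0.0021). Gadd45b, a stress sensor induced by NF-kB, had 257, 361 and 129 CPM at 4 h, against 7.24, 10.9 and 7.55 CPM at 0 h (log2 change 4.98 ± 0.67 SE, edgeR adjusted p = 3.9e-06). Bcl2a1b, a survival gene of the family of Bcl-2 with near-identical copies among which reads may be split, had 259.9, 465 and 294 CPM at 4 h, against 1.21, 5.14 and 0 CPM at 0 h (log2 change 7.36 ± 1.46 SE, edgeR adjusted p = 0.0044). Mouse 3 was lowest at 4 h in Cdkn1a and Gadd45b but not in Bcl2a1b. Of 26 p53 targets and apoptosis genes these 3 rose and 0 fell, 23 had positive changes and the median was 1.61. Among the death genes of that list, Bcl2l11, which encodes the killer protein Bim, had 351, 267 and 311 CPM at 4 h, against 28.5, 0.0934 and 3.65 CPM at 0 h (log2 change 4.97 ± 1.24 SE, edgeR adjusted p = 0.066), and was named after its values were seen. With the mouse as replicate block it passed (edgeR adjusted p = 0.035), and 5 members of the list rose.

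Of 30 immediate early genes 1 rose at 4 h. Atf3, a stress-induced transcription factor, had 92.1, 43.3 and 24.1 CPM at 4 h and 0 counts at 0 h, at least 409-fold higher (edgeR adjusted p = 0.0032). Junb, an AP-1 subunit, had 663, 752 and 424 CPM at 4 h, against 289.6, 207 and 156 CPM at 0 h (log2 change 1.62 ± 0.41 SE, edgeR adjusted p = 0.066). Nr4a1, an orphan nuclear receptor induced by many stimuli, had 91.2, 171 and 208 CPM at 4 h, against 29.8, 19.5 and 15.8 CPM at 0 h (log2 change 2.97 ± 0.73 SE, edgeR adjusted p = 0.062). Neither passed, and both did with the mouse as replicate block (edgeR adjusted p = 0.0097 and 0.013). Ptgs2, the inducible cyclooxygenase of prostaglandin synthesis, belonged to no list and had 166, 179 and 63.7 CPM at 4 h, against 0, 0.654 and 0 CPM at 0 h (log2 change 9.0 ± 1.58 SE, edgeR adjusted p = 7.2e-04). Lad1, a protein of epithelial anchoring filaments, also rose without belonging to a list, with 99.3, 168 and 464 CPM at 4 h and 0 counts at 0 h, at least 1877-fold higher (edgeR adjusted p = 0.0013). Lad1 was highest in mouse 3, whereas Ptgs2 and Atf3 were lowest there.

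A further 5 genes that rose were named after their values were seen. Skil, an inhibitor of transforming growth factor beta signalling, had 510.2, 686 and 429 CPM at 4 h, against 61.5, 31.3 and 15.8 CPM at 0 h (log2 change 4.02 ± 0.6 SE, edgeR adjusted p = 3.6e-05). Ehd1, a protein of endosome recycling, had 667, 698 and 298 CPM at 4 h, against 101, 64 and 51.6 CPM at 0 h (log2 change 3.07 ± 0.65 SE, edgeR adjusted p = 0.01). Sdc4, a heparan sulfate proteoglycan, had 356, 749.6 and 203 CPM at 4 h, against 51.9, 38 and 29.5 CPM at 0 h (log2 change 3.58 ± 0.67 SE, edgeR adjusted p = 0.0019). Glipr1, a secretory pathway protein first found in glioma, had 519, 869 and 416 CPM at 4 h, against 81.6, 94.6 and 91.4 CPM at 0 h (log2 change 2.88 ± 0.42 SE, edgeR adjusted p = 2.7e-05). Fyb, an adaptor of immune cell adhesion, had 427, 193 and 358 CPM at 4 h, against 77, 62.2 and 37.8 CPM at 0 h (log2 change 2.58 ± 0.58 SE, edgeR adjusted p = 0.021). None of them overlapped between the times, and mouse 3 was lowest at 4 h in all but Fyb, where mouse 2 was.

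Genes of autophagy, iron storage and oxidative stress rose in part. Summed over 24 genes they made up 78007, 67349 and 16186 CPM in mice 1, 2 and 3 at 4 h, against 10116, 8216 and 4738 CPM at 0 h, lowest in mouse 3 at both times. Sqstm1, the autophagy receptor p62, had 6580.1, 7935 and 5069 CPM at 4 h, against 333, 253 and 452 CPM at 0 h (log2 change 4.37 ± 0.56 SE, edgeR adjusted p = 1.6e-06). Ftl1, the ferritin light chain, which has many near-identical pseudogene copies, had 21899, 21073 and 4808 CPM at 4 h, against 2762, 2367 and 1469 CPM at 0 h (log2 change 2.98 ± 0.68 SE, edgeR adjusted p = 0.023). Vmp1, a membrane protein of autophagosome formation, had 336, 571 and 272 CPM at 4 h, against 125, 106 and 110.1 CPM at 0 h (log2 change 1.92 ± 0.43 SE, edgeR adjusted p = 0.023). These 3 rose and 0 fell, all 24 changes were positive, and the median was 1.97. With the mouse as replicate block 7 rose, among them Fth1, the ferritin heavy chain (26947, 21253 and 1996 CPM at 4 h, against 1300.5, 1409 and 938 CPM at 0 h), and Hmox1, which degrades haem (4389.5, 2958 and 50.8 CPM at 4 h, against 60.1, 71.7 and 21.7 CPM at 0 h), both named after their values were seen. Hmox1 overlapped between times, since mouse 3 at 4 h was below mice 1 and 2 at 0 h.

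Of 20 endoplasmic reticulum chaperones 1 rose, Hspa5 (BiP), with 959, 1167 and 1517 CPM at 4 h, against 375, 589 and 414 CPM at 0 h (log2 change 1.52 ± 0.34 SE, edgeR adjusted p = 0.021), highest in mouse 3 at 4 h. Herpud1, of endoplasmic reticulum-associated degradation, had 271, 392 and 345 CPM at 4 h, against 171, 116 and 103 CPM at 0 h (log2 change 1.5 ± 0.37 SE, edgeR adjusted p = 0.062), and passed with the mouse as replicate block (edgeR adjusted p = 0.012). Xbp1, a transcription factor of the unfolded protein response, had 256, 279 and 293 CPM at 4 h, against 145, 192 and 141 CPM at 0 h (log2 change 0.91 ± 0.35 SE, edgeR adjusted p = 0.64). Of 22 integrated stress response genes 0 passed by edgeR, 3 had an unadjusted p under 0.05, DESeq2 called 1 higher and 0 lower, and limma voom 0 and 0. Slc7a11, the cystine transporter, was at 1652, 968 and 57.4 CPM at 4 h, against 46.5, 23.2 and 23.6 CPM at 0 h (log2 change 4.97 ± 1.34 SE, edgeR adjusted p = 0.13), and was the 1 member that passed with the mouse as replicate block (edgeR adjusted p = 0.013). Slc3a2, its partner subunit, was at 421 ± 214 CPM, against 146 ± 30 CPM (SD, n = 3 mice each), and Atf4, the transcription factor of that response, at 223 ± 30.8 CPM, against 118 ± 17.1 CPM. Of 20 heat shock chaperones 0 passed by edgeR, 3 had an unadjusted p under 0.05, DESeq2 called 1 higher and 2 lower, and limma voom 0 and 1. The 3 with an unadjusted p under 0.05 were Hspa1a, the inducible Hsp70 (52, 179.8 and 353 CPM at 4 h, against 0, 10.7 and 5.36 CPM at 0 h), Hspe1, a mitochondrial chaperonin (44.4 ± 25.7 CPM at 4 h, against 109 ± 19.8 CPM), and Fkbp4, a partner of Hsp90 (86.7 ± 34.1 CPM, against 296 ± 80.1 CPM). Fkbp4 fell with the mouse as replicate block (edgeR adjusted p = 0.048).

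Enzymes of sterol synthesis rose in all 3 mice. Fdps, which makes farnesyl pyrophosphate, had 271, 359 and 338 CPM at 4 h, against 76.9, 79.6 and 55.5 CPM at 0 h (log2 change 2.31 ± 0.5 SE, edgeR adjusted p = 0.013). Sc4mol, a methyl sterol oxidase, had 445, 388 and 324 CPM at 4 h, against 116, 92.3 and 64.8 CPM at 0 h (log2 change 2.2 ± 0.45 SE, edgeR adjusted p = 0.0072). The 4 h and 0 h libraries did not overlap in either gene. Of 24 cholesterol and fatty acid genes 3 rose and 0 fell, and 19 had positive changes. In 10 of them every 4 h library was above every 0 h library, which held for 3.99% of all genes. The list's median was 1.41, and its summed level was 3416, 4582 and 4600.0 CPM at 4 h, against 1109, 1226 and 1989 CPM at 0 h.

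Of 42 listed interferon-stimulated genes, a list without Cxcl10, 0 passed by edgeR at 4 h, 5 had an unadjusted p under 0.05, DESeq2 called 1 higher and 0 lower, and limma voom 1 and 0. There were 17 positive and 25 negative changes, with a median of -0.24 beside -0.24 over all genes. Oasl1, a relative of the antiviral oligoadenylate synthetases, had 323, 317 and 84.5 CPM at 4 h, against 15.2, 32.6 and 45.8 CPM at 0 h (log2 change 3.08 ± 1.1 SE, edgeR adjusted p = 0.55). Ifitm3 and Ifitm1, membrane proteins that restrict virus entry, had 255, 269 and 168 CPM at 4 h, against 589, 585 and 373 CPM at 0 h (Ifitm3) and 22.6, 79.3 and 126 CPM at 4 h, against 134, 439 and 633 CPM at 0 h (Ifitm1). These last 2 lay lower at 4 h in every mouse and did not pass (edgeR adjusted p = 0.64 each). Irf1, a transcription factor of this response, overlapped between times, at 31.5, 75.5 and 134 CPM at 4 h, against 62.9, 101 and 149 CPM at 0 h. Of 23 SOCS and JAK-STAT genes 0 passed by edgeR, 3 had an unadjusted p under 0.05, DESeq2 called 1 higher and 0 lower, and limma voom 0 and 0. Among them Socs3, a feedback inhibitor of cytokine receptors, had 187, 146 and 29 CPM at 4 h, against 14, 12.1 and 8.77 CPM at 0 h (log2 change 3.49 ± 1.22 SE, edgeR adjusted p = 0.51). Ifnar1, a type I interferon receptor chain, had 148, 259.7 and 376 CPM at 4 h, against 139.5, 107 and 128 CPM at 0 h. Stat3 had 248, 243 and 519 CPM at 4 h, against 197, 178 and 341 CPM at 0 h.

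A pair of genes fell. H2afy, which encodes the histone variant macroH2A1, had 50.5, 89.1 and 60.1 CPM at 4 h, against 282, 384 and 315 CPM at 0 h (log2 change -2.17 ± 0.49 SE, edgeR adjusted p = 0.022). Ckb, the brain-type creatine kinase, had 0 counts in every 4 h library, against 62.8, 42 and 6.58 CPM at 0 h, at least 183-fold lower when the 4 h group is put at 3 counts (edgeR adjusted p = 0.03). H2afy fell alike in the 3 mice, whereas the 0 h level of Ckb was several times lower in mouse 3. With the mouse as replicate block 13 genes fell. They include Myc, the growth-promoting transcription factor, with 5.3, 5.91 and 15.2 CPM at 4 h, against 233, 434 and 400.3 CPM at 0 h (log2 change -5.23 ± 1.31 SE, edgeR adjusted p = 0.066 without the block, 0.017 with it), lower at 4 h in every mouse. Its relative Mycn had 1 count over the 3 libraries at 4 h, against 24, 90.8 and 273 CPM at 0 h (ratio 0.000682, exact 95% binomial interval 1.7e-05 to 0.00381, counting error only). Nup210, a nuclear pore protein, had 3.18, 4.76 and 39.3 CPM at 4 h, against 202, 112 and 250.4 CPM at 0 h. Hmgb1, Set and Ptma, abundant nuclear proteins with pseudogene copies that may share reads, had 505 ± 130.1, 251 ± 16.2 and 513 ± 158 CPM at 4 h, against 1141 ± 310.4, 601 ± 60.3 and 1176 ± 269 CPM at 0 h (SD, n = 3 mice each). These 3 are the members of the list of 20 chromatin and nuclear proteins that fell with the block, and 0 did without it (4 had an unadjusted p under 0.05, DESeq2 called 0 higher and 4 lower, and limma voom 0 and 1). Fkbp4 and the glycolytic enzyme Tpi1 also fell with the block, and so did Slc22a3, Atp9a and Bank1, which had 0 counts at 4 h.

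Lists of stem cell identity, lineage priming and growth showed no call. Of 28 stem cell identity genes 0 passed by edgeR, 1 had an unadjusted p under 0.05, DESeq2 called 0 higher and 0 lower, and limma voom 0 and 0. There were 20 negative changes and a median of -0.61, or -0.72 with genes at 0 set to their bound. Angpt1, a growth factor of vessels and stem cells, had 0, 10.3 and 53.5 CPM at 4 h, against 136, 239.9 and 486 CPM at 0 h (log2 change -3.64 ± 1.86 SE, edgeR adjusted p = 0.67). It was lower at 4 h in each mouse and highest in mouse 3 at both times. Lmo2, a haematopoietic transcription cofactor, had 27.6, 57.5 and 80.5 CPM at 4 h, against 117, 206 and 247 CPM at 0 h. Hlf, a stem cell transcription factor, had 73, 18.7 and 184 CPM at 4 h, against 43, 154 and 462 CPM at 0 h. Procr, the protein C receptor that marks stem cells, had 115, 239 and 201 CPM at 4 h, against 32.3, 75.9 and 170.3 CPM at 0 h. Hlf and Procr overlapped between the times.

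Of 20 MPP and lymphoid priming genes 0 passed by edgeR, 1 had an unadjusted p under 0.05, DESeq2 called 0 higher and 0 lower, and limma voom 0 and 0, and the median was -0.85. Flt3, a cytokine receptor of MPP, had 91.4, 94.9 and 95.1 CPM at 4 h, against 151, 231 and 476 CPM at 0 h (log2 change -1.48 ± 1.77 SE, edgeR adjusted p = 1), lower at 4 h in every mouse. Satb1, a lymphoid chromatin organiser, had 0, 0 and 6.27 CPM at 4 h, against 14.5, 24.5 and 18.8 CPM at 0 h, and Rag2, of the antigen receptor recombinase, was at 0 at 4 h, against 5.07, 10.9 and 2.19 CPM at 0 h. Ccr7, a lymph node homing receptor, went the other way, with 85.7, 88.8 and 84.5 CPM at 4 h, against 18.8, 15 and 2.68 CPM at 0 h (log2 change 2.93 ± 1.96 SE, edgeR adjusted p = 0.88). Of 13 myeloid transcription factors 0 passed by edgeR, 2 had an unadjusted p under 0.05, DESeq2 called 1 higher and 1 lower, and limma voom 1 and 0. Batf, an AP-1 family factor, had 129.9, 118 and 203 CPM at 4 h, against 9.05, 19.2 and 31.2 CPM at 0 h (log2 change 3.05 ± 0.97 SE, edgeR adjusted p = 0.35). Ikzf1, a lymphoid and myeloid zinc finger factor, had 68, 198 and 209.6 CPM at 4 h, against 193, 129 and 146 CPM at 0 h. Klf5, an epithelial and myeloid zinc finger factor, had 0 counts in every 4 h library, against 5.31, 9.71 and 0.974 CPM at 0 h (edgeR adjusted p = 0.57).

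Of 33 cell cycle genes 0 passed by edgeR, 2 had an unadjusted p under 0.05, DESeq2 called 0 higher and 0 lower, and limma voom 0 and 0. Negative changes numbered 28 (median -0.80), and the summed level was 4056, 3159.8 and 1246 CPM at 4 h, against 6142, 5907 and 3083 CPM at 0 h. Cdk4, a kinase of G1, had 99.8, 212 and 138 CPM at 4 h, against 365, 429 and 355 CPM at 0 h. Dut, which clears dUTP, had 44.5, 34.5 and 11.9 CPM at 4 h, against 120.0, 144 and 65 CPM at 0 h. Cdc6, which licenses replication, had 0, 0.328 and 5.61 CPM at 4 h, against 30.7, 52.9 and 26.6 CPM at 0 h. Of 29 ribosome biogenesis genes 0 passed by edgeR, 0 had an unadjusted p under 0.05, DESeq2 called 0 higher and 0 lower, and limma voom 0 and 1. Negative changes numbered 26 (median -0.62), and in 9 every 4 h library was below every 0 h library, which held for 11.1% of all genes. Ncl, nucleolin, had 179, 389.7 and 469.7 CPM at 4 h, against 639.7, 695 and 792 CPM at 0 h. Nop58, a core protein of nucleolar particles, had 64.1, 109.8 and 68 CPM at 4 h, against 147, 152 and 162 CPM at 0 h. Ppan, a factor of large subunit assembly, had 0, 0 and 44.6 CPM at 4 h, against 43.4, 98.6 and 98.2 CPM at 0 h. Of 25 glycolysis and hypoxia genes 0 passed by edgeR, 4 had an unadjusted p under 0.05, DESeq2 called 1 higher and 2 lower, and limma voom 1 and 0. Aldoa, an aldolase, had 1973, 2129 and 1455 CPM at 4 h, against 1077, 953 and 833 CPM at 0 h (log2 change 1.08 ± 0.33 SE, edgeR adjusted p = 0.28). Tpi1 had 154 ± 52.8 CPM at 4 h, against 471 ± 43.6 CPM (SD, n = 3 mice each). Aldoa rose and Tpi1 fell with the mouse as replicate block (edgeR adjusted p = 0.02 and 0.048). Hif1a, the hypoxia factor, had 194 ± 90.1 CPM, against 81.3 ± 32.3 CPM.

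**Figure D2:**
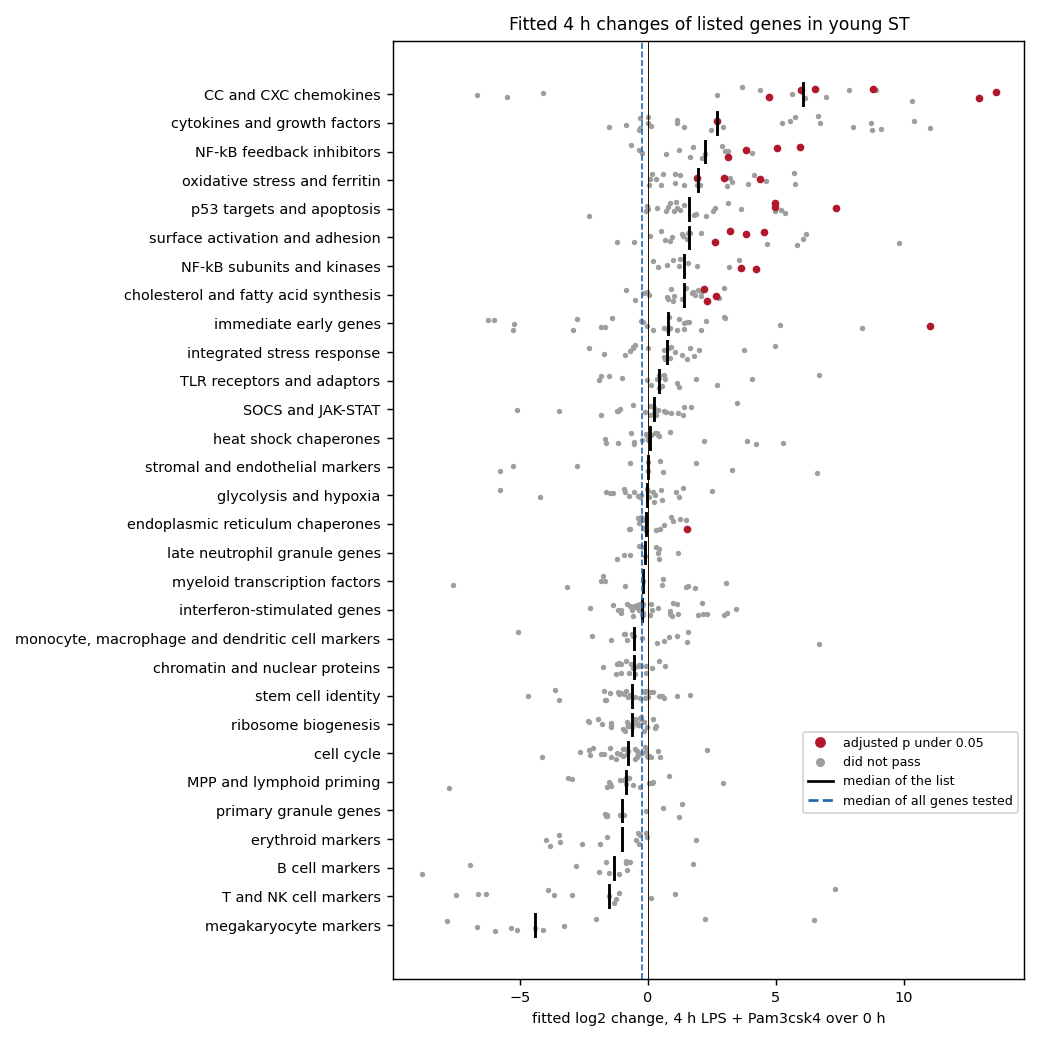
Fitted log2 change, 4 h over 0 h, of each tested member of 30 gene lists in young ST (red, adjusted p under 0.05; grey, did not pass; black bar, median of the list; dashed line, median of all 13678 genes at -0.24). Chemokines have the highest median at 6.07, and 10 of the 30 lists hold a called member; fitted changes of genes at 0 in one group depend on a prior count.

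Levels at 4 h differed between the 3 mice. Fitted with the mouse as replicate block, since libraries of one number come from one animal, 95 genes were called (0.695% of genes tested), all 37 above among them. Of the 47 that rose with the block and not without it, 31 were lowest in mouse 3 at 4 h, as were 22 of the 35 that rose without the block, beside 18.4% of all genes. For that share ties were given to mouse 1, among them 1283 genes at 0 in every 4 h library. These ties lower the 18.4%, and no share was computed for detected genes alone. In 10 of the 35 the level in mouse 3 at 4 h was less than 0.5 times the lower of mice 1 and 2. Several of these 47 are known from activated myeloid cells. Irg1, the itaconate-producing enzyme of activated macrophages, had 3192, 3015 and 4.95 CPM at 4 h, against 0, 9.15 and 0 CPM at 0 h (edgeR adjusted p = 0.0098 with the block, 0.36 without it). Saa3, an acute phase protein of macrophages, had 451, 361 and 2.31 CPM at 4 h, against 0, 1.59 and 0 CPM at 0 h (edgeR adjusted p = 0.049 and 0.47). Fpr1, a receptor for bacterial peptides on neutrophils, had 1129, 752 and 3.96 CPM at 4 h, against 66.4, 67.6 and 0 CPM at 0 h. Il1f9, an interleukin 1 family cytokine, had 972, 733 and 10.6 CPM at 4 h, against 78.3, 25.6 and 0.487 CPM at 0 h, both named after their values were seen. Mouse 3 stood below the other mice at both times in Fpr1 and Il1f9, and its granule genes took 0.0504% of counts at 4 h, against 6.53% and 3.80% in mice 1 and 2. The part of granulocyte and monocyte transcripts in these rises was not tested. Relb and Cxcl16 were highest in mouse 3 at 4 h, and Icam1 lay between mice 1 and 2 there. Among the others of these 47, Gpr25, Slc7a3 and Etnk2 had 0 counts in all 0 h libraries, and means of 26.3 ± 18.7, 59.7 ± 49.2 and 26.6 ± 12.1 CPM at 4 h (SD, n = 3 mice).

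Time in culture and the ligands changed together between 0 and 4 h in mice 1, 2 and 3, and ST of mouse 4 were cultured for 4 h without ligand, 1 library at each time and so with no test. Of the 35 genes that rose, 23 were higher by more than 1 on the log2(CPM + 1) scale in mouse 4 too, beside 13.9% of all genes, and 12 were not. Atf3 had 105 CPM at 4 h without ligand, against 0.808 CPM at 0 h, Sqstm1 2934 CPM, against 257 CPM, Ftl1 27339.6 CPM, against 2288 CPM, and Relb 141 CPM, against 4.85 CPM. Atf3 and Ftl1 thus ended higher without ligand than in any stimulated library, and Relb below all 3. Relb started from a lower level in mouse 4, and its change on the log2(CPM + 1) scale exceeded that of each stimulated mouse. The change of Sqstm1 in mouse 4 lay within the range of the stimulated mice. Genes within 1 of no change in mouse 4 include Nfkbia (149 CPM, against 184 CPM), Nfkbiz (53 CPM, against 34.3 CPM), Icam1 (5.02 CPM, against 7.27 CPM) and Fdps (89.5 CPM, against 103 CPM). Lad1 was at 0 at both times there. Cxcl16 and Bcl2a1b went to 6.39 and 10 CPM without ligand, against 0 counts at 0 h, far under the stimulated levels given above. H2afy had 74 CPM, against 355 CPM, with the 4 h value inside the range of the stimulated libraries, and 9 of the 13 genes that fell with the block were lower by more than 1 in mouse 4, beside 28.5% of all genes. Medians of the lists in mouse 4, on the log2(CPM + 1) scale, were 0.61 for NF-kB feedback inhibitors and 0.99 for oxidative stress and ferritin genes. Cholesterol and fatty acid genes had -0.43. Interferon-stimulated genes had -1.78 there, beside -0.115 over all genes, and -0.37, -0.06 and -0.02 in mice 1, 2 and 3 with ligands. For p53 targets and apoptosis genes the median was 1.14 in mouse 4, and 1.33, 1.86 and 1.33 in mice 1, 2 and 3.

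**Figure D3:**
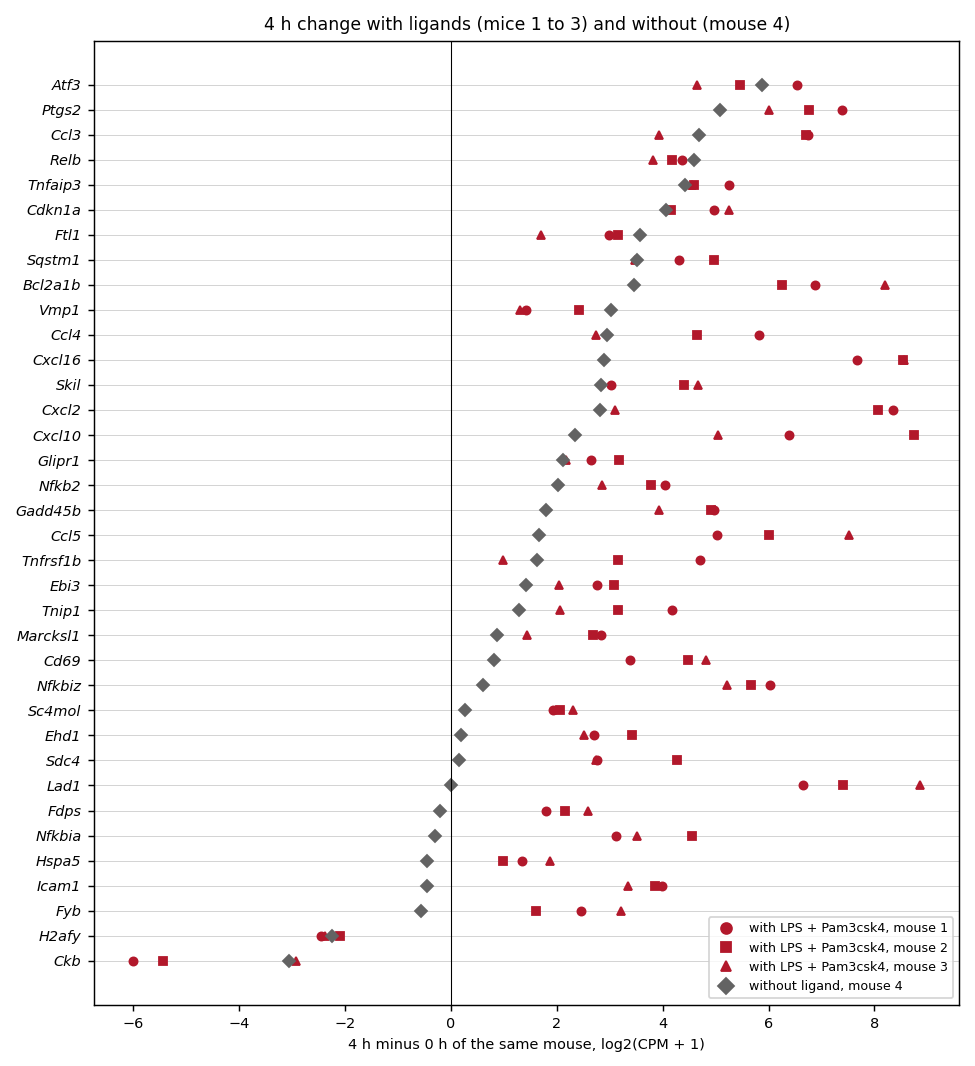
Change from 0 to 4 h within each mouse on the log2(CPM + 1) scale for 36 of the called genes, with LPS and Pam3csk4 (red, mice 1 to 3) and without ligand (grey diamonds, mouse 4, 1 library a time). Genes run from the largest to the smallest change without ligand. Atf3, Ftl1, Relb and Sqstm1 are among those within or beyond the stimulated mice, while Nfkbia, Nfkbiz, Lad1, Icam1 and Fdps lie within 1 of no change.

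The genes called at 4 h had their highest levels at different times. Of the 35 genes that rose, 1 had its highest mean of the 7 times at 0.5 h, 7 at 1 h, 11 at 2 h, 4 at 4 h, 4 at 8 h and 8 at 12 h. Nfkbia, Nfkbiz and Tnfaip3 peaked at 1 h and were at 1808 ± 190.1, 960.1 ± 101 and 644 ± 393 CPM at 2 h (SD, n = 3 mice each). Nfkb2, Relb, Icam1 and Cd69 peaked at 2 h. Sc4mol, Cxcl16 and Fyb were among those with their highest mean at 4 h itself. Sc4mol was at 129 ± 34.5 CPM at 2 h, 386 ± 60.6 CPM at 4 h and 209.6 ± 64.6 CPM at 8 h. Fdps was at 71.1 ± 30.3 CPM at 2 h, 323 ± 45.8 CPM at 4 h and 389.8 ± 201 CPM at 8 h. The chemokines Ccl3, Ccl4, Ccl5 and Cxcl2 had their highest means at 12 h. Myc was at 77.1 ± 2.13 CPM at 2 h, 8.8 ± 5.54 CPM at 4 h, its lowest mean, and 36.3 ± 25.9 CPM at 8 h. No single gene passed between neighbouring times: 0 of 13678 were called by edgeR at 4 h against 2 h (549, or 4.01%, at an unadjusted p under 0.05, and 264, or 1.93%, by DESeq2) and 0 at 8 h against 4 h (595, or 4.35%, at an unadjusted p under 0.05, and 327, or 2.39%, by DESeq2).

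**Figure D4:**
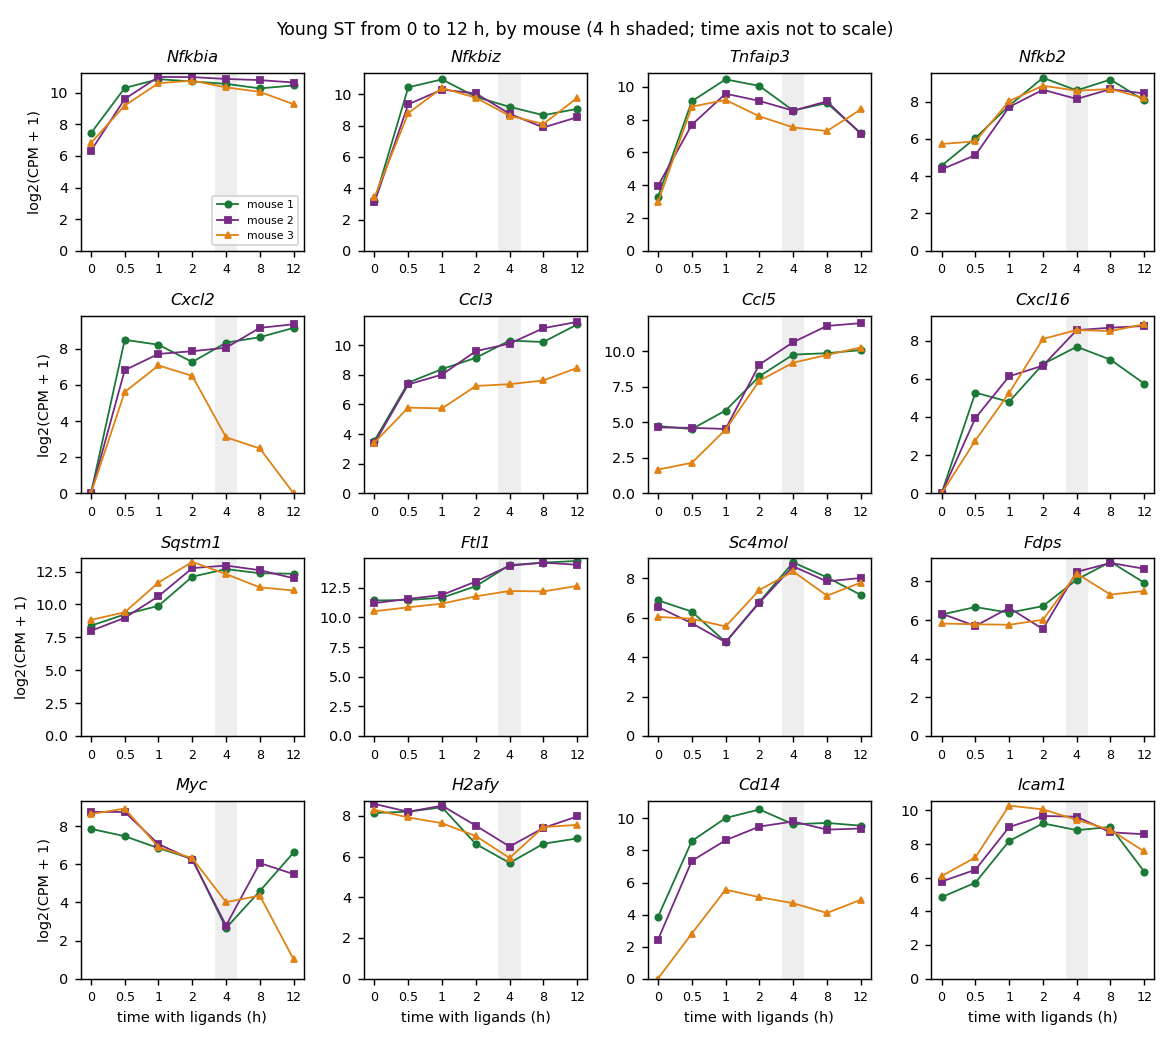
Level as log2(CPM + 1) of 16 genes in young ST of mice 1, 2 and 3 at 0, 0.5, 1, 2, 4, 8 and 12 h with LPS and Pam3csk4 (one line a mouse, 4 h shaded, times evenly spaced and not to scale). Nfkbiz is highest at 1 h in each mouse and Nfkbia at 1 or 2 h, Sc4mol and Fdps step up between 2 and 4 h, Myc is at its lowest in mice 1 and 2 at 4 h, and mouse 3 falls behind in Cxcl2, Ccl3, Ftl1 and Cd14.

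Most of the genes that rose in ST also rose in LT and MPP of the same mice. At 4 h 33 genes rose in LT (0.241% of genes tested) and 46 in MPP (0.336%), and 25 of the 35 ST genes were among the LT genes (71.4% of the ST genes, 75.8% of the LT genes) and 28 among the MPP genes (80.0% of the ST genes, 60.9% of the MPP genes). In all 3 populations 22 genes rose. Fdps, Fyb, Hspa5 and Tnfrsf1b were called in ST and in neither of the others, yet the test of the difference passed for none of them. Fdps changed by 2.31 ± 0.50 in ST, by 1.14 ± 0.48 in LT and by 1.98 ± 0.49 in MPP (log2 ± SE), and Hspa5 by 1.52 ± 0.34, 0.42 ± 0.33 and 1.02 ± 0.34. For Hspa5 the difference between ST and LT was 1.1 ± 0.47 (edgeR adjusted p = 1). Over all genes, 0 changes differed between ST and LT by edgeR (470, or 3.44%, at an unadjusted p under 0.05, and 284, or 2.08%, by DESeq2) and 0 between ST and MPP (196, or 1.43%, at an unadjusted p under 0.05, and 166, or 1.21%, by DESeq2). The median changes were 2.23 in ST, 2.06 in LT and 2.28 in MPP for NF-kB feedback inhibitors, and 1.41, 1.10 and 1.67 for cholesterol and fatty acid genes.

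**Figure D5:**
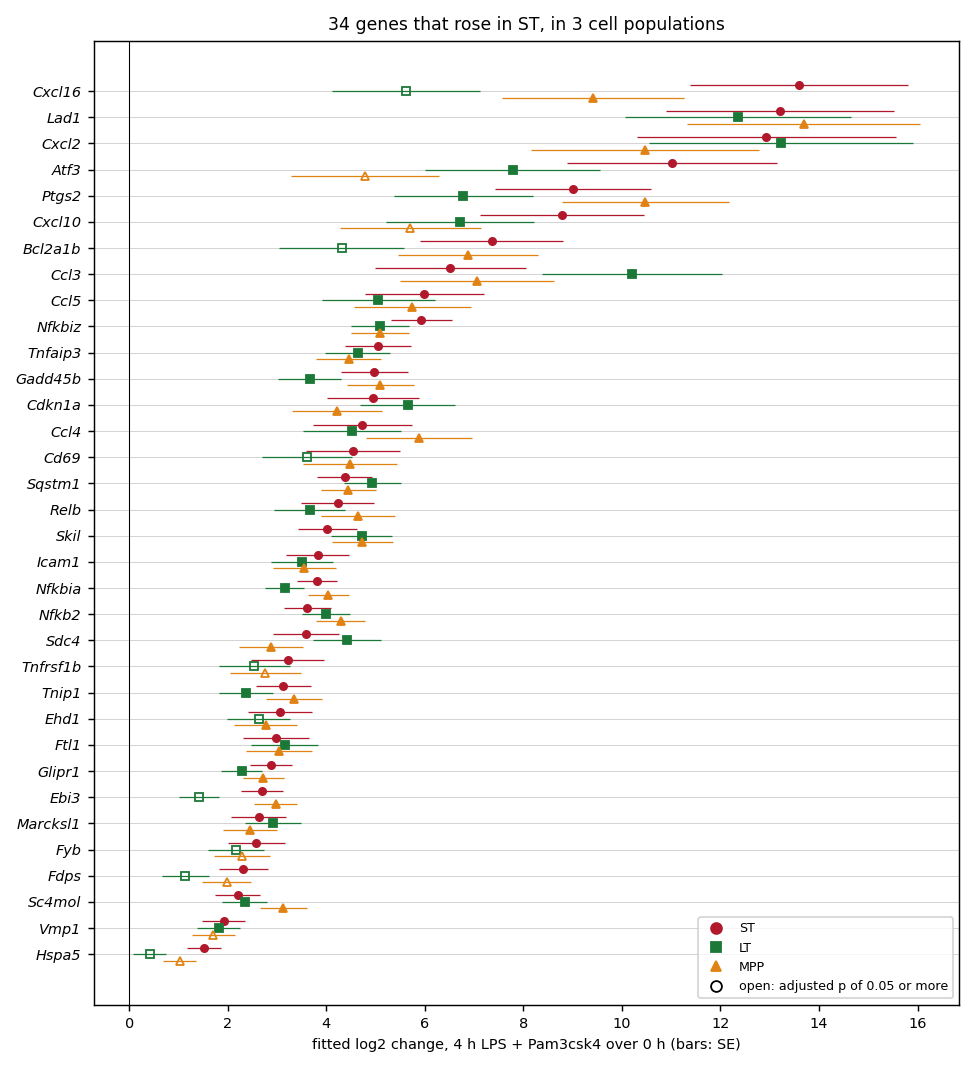
Fitted log2 change ± SE, 4 h over 0 h, of 34 genes that rose in young ST, in ST (circles), LT (squares) and MPP (triangles) of mice 1 to 3 (filled, adjusted p under 0.05; open, did not pass). Hspa5 is at 1.52 in ST and 0.42 in LT, a difference that did not pass. Fitted changes of Cxcl16, Lad1, Cxcl2 and Atf3, at 0 in ST at 0 h, depend on a prior count.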

How the data were processed

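Polyadenylated RNA of sorted ST was sequenced in bulk with SMART-seq2, per the labels' protocols. The authors deposited expected counts per gene symbol, made with RSEM (version not given in the sources used here) on mm9, per the submitters' processing notes. In the deposited table of 23366 symbols 89.5% of values are whole, and 6 of 127 libraries, none of them used here, held under 1000 counts. Expected counts were summed over repeats of a mouse and time and rounded. All 63 summed LT, ST and MPP libraries of young mice 1 to 3 entered 1 fit with a mean for each cell type and time (edgeR 4.0.16, TMM, filterByExpr, quasi-likelihood F test, Benjamini-Hochberg threshold 0.05, R 4.3.3), so all share one estimate of spread. The SE is the log2 change over the square root of F. A gene at 0 in a group was given a floor of 3 counts over that group. Counting error is all that floors and intervals cover, since reads carry no molecular identifiers.

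Libraries with the same mouse number come from the same animal, so the mouse as replicate block was the paired alternative. Deviations of 4 h and 0 h libraries from their group means correlated at 0.21, 0.079 and 0.437 within mice 1, 2 and 3, and at -0.311 to 0.066 between mice. Each group mean holds all 3 mice, so values within and between mice are not independent, and mouse goes with header date. Other alternatives were DESeq2 1.42.0, limma voom 3.58.1, other scalings, filters and sets of libraries, and leaving out each mouse. Scripts were tested on simulated data.

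The members and the gene lists were chosen with earlier results of these data known. Genes are named where they passed, reached 10 CPM in the higher group, went one way in all mice and changed most (up to 12 a direction), with up to 6 passing members of each list (or the lowest p-values until 3 were named), a set of known response and stem cell genes, and the largest changes that passed only with the block. Members of marker lists, and Batf3, which that rule also names, are given by list sums and chosen markers only. Some genes that the rule names are not reported here.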

Additional observations from a re-analysis of the deposited data

Results flagged for a closer look

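Klf5 drew attention because every mouse moved one way in ST and the opposite way in MPP. In ST its mean change from 0 to 4 h was -5.33 CPM, with 0 counts in all 3 libraries at 4 h, whereas in MPP it was higher at 4 h in all 3 mice (9.82, 3.06 and 1.32 CPM, against 5.07, 0.836 and 0.249 CPM at 0 h). The edgeR test of that difference did not pass (adjusted p = 1.0, unadjusted p = 0.0099), and all of these levels are low.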

How the results depend on the processing

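The 37 calls at 4 h against 0 h became 452 with DESeq2, 220 with limma voom, 95 with the mouse as replicate block, 96 with that block in ST libraries only, 60 with mouse 4 added at 0 h, and 2 (Cxcl16 and Nfkbiz) in a fit of the 6 compared libraries. Leaving out 1 mouse gave 5 to 71 calls, and with the replicate block 17 to 102 (83 without mouse 1). All 37 were kept with DESeq2, the replicate block, other size factors and the filter of 5 CPM, 28 with limma voom, 29 in ST libraries only and 32 without a filter. With 1 mouse left out, 5 to 30 of the 37 were kept, and 15 to 33 with the replicate block. Between ST and LT, ST and MPP, 4 h and 2 h, and 8 h and 4 h, edgeR made 0 calls, with the replicate block too, and DESeq2 284, 166, 264 and 327. limma voom made 2 between ST and MPP and 2 between 4 h and 2 h. Leaving out 1 mouse gave 0 to 17 calls between ST and LT (0 to 16 with the replicate block) and 0 to 3 between 4 h and 2 h (0 to 5 with it), the highest without mouse 3. The cause of these differences was not tested. The column headed 00 (40 calls) stood for technical replicate 1, which headers do not identify. That with 01 (37 calls), the fit without 12 h (43 calls) and the blocked fits of ST only or without a mouse were chosen after seeing the data.

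The log2 change turned its sign for these genes, each of which passed in no setting printed here. For Ikzf1 it was 0.15 and went to -0.35 (mouse 4 added), -0.16 to 0.76 (leaving out 1 mouse), -0.18 (without mouse 2, replicate block), -0.061 (without mouse 3, replicate block). For Kit it was -0.067 and went to 0.024 (no filter on low counts), 0.003 (compared libraries only), 0.077 (column 01), 0.26 (mouse 4 added), -0.28 to 0.11 (leaving out 1 mouse), 0.057 (without mouse 1, replicate block). For Ly6a it was 0.19 and went to -0.019 (replicate block, ST libraries only), -0.28 (without mouse 2, replicate block), -0.18 (without mouse 3, replicate block). For Tlr2 it was 0.42 and went to -0.19 (column 01), -0.77 to 1.81 (leaving out 1 mouse). For Tlr4 it was 0.35 and went to -4.40 (limma voom), -0.13 (column 00), -0.13 (mouse 4 added), -0.93 (replicate block, ST libraries only), -4.67 to 0.96 (leaving out 1 mouse), -4.74 (without mouse 1, replicate block).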

Other observations

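Some of the highest 4 h levels were in mouse 4, whose ST had no ligand. Hspa1a, the inducible Hsp70, had 1911 CPM at 4 h there, against 7.27 CPM at 0 h, while the stimulated libraries of mice 1, 2 and 3 had 52.0, 180 and 353 CPM at 4 h. Hmox1, which degrades haem, had 6659 CPM at 4 h without ligand, against 40 CPM at 0 h, above the 4390, 2958 and 50.8 CPM of the stimulated libraries. The 20 heat shock chaperones had a median change of 1.82 on the log2(CPM + 1) scale in mouse 4, and of -0.29, 0.09 and 0.10 in mice 1, 2 and 3 with ligands. This rests on 1 library a time and has no test.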
